A study of Mus musculus with 6 samples.

Results

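The prolactin, growth hormone and serotonin axis of the neonatal islet was followed through 10 genes, from the receptors *Prlr* and *Ghr* over the signal transducers *Stat5a* and *Stat5b* and the feedback genes *Cish* and *Socs2* to the serotonin genes *Tph1*, *Tph2*, *Ddc* and *Slc18a1*. Their probes were found through the RefSeq transcript that each array probe names, with no threshold on a measured value, and all of their 20 probes are described, out of 56605 probes that are not controls (22908 genes with a symbol). The samples were islet cells of P1 Wnt4eGFPCre; mTmG mouse pups, which carry the alleles Wnt4 tm2(EGFP/cre)Svo and, at Gt(ROSA)26Sor, the reporter tm4(ACTB−tdTomato,−EGFP)Luo and had been crossed to C57BL/6J. Cre made under control of *Wnt4* turns on membrane GFP for good, so that FACS on GFP separated cells that have expressed *Wnt4* (Wnt4hi) from cells without GFP (Wnt4low), and the GFP records past as well as present expression of *Wnt4*. There were 3 arrays of Wnt4hi cells (replicates 2, 3 and 4, from 4, 4 and 3 pups) and 3 of Wnt4low cells (replicates 1, 3 and 4, from 4, 4 and 3 pups), each 1 pool of pups. The question was how the sorted populations differ in gene expression, and all differences below are Wnt4hi minus Wnt4low.

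Prolactin, placental lactogens and growth hormone act through the related cytokine receptors PRLR and GHR. Both receptors use the kinase JAK2, which phosphorylates STAT5, and STAT5 switches on *Cish* and *Socs2*, whose products dampen the same receptors. In β-cells, lactogen signalling is known for raising proliferation and insulin secretion in pregnancy and in the neonate, and for inducing tryptophan hydroxylase, which makes serotonin together with the decarboxylase encoded by *Ddc*. Serotonin is then packed into vesicles by the monoamine transporters.

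STAT5 binds an inverted repeat spelled TTCNNNGAA, which reads the same on both strands. A promoter window of 300 bases (250 before the transcription start to 50 after it, RefSeq, GRCm38.p6) was held for 8 of the 10 genes, 15 windows in all. This spelling occurred in 2 of the 15 windows and in 8.3% of all 32851 windows of the mouse table. One was that of *Cish*, a classical STAT5 target, which held 2 matches, at the annotated start and 12 bases into the transcript, and the other belonged to a start of *Prlr*, 110 bases before it. Both stretches are shown to place the motif, with matches in capitals, at chr9:107296599-107296678 (plus strand, from 60 bases before the start) and chr15:10223766-10223834 (plus strand).
Cish: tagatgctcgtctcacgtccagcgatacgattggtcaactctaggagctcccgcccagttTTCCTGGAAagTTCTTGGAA
Prlr: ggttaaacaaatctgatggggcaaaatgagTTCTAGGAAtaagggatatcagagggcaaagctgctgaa
A match is a description of the letters and not evidence of binding, and these arrays hold no measurement at either position.

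All 6 arrays lay on 1 slide, and between 70.5% and 79.5% of 59305 spots per array were well above background. The marker genes of the labelled tissue were present. The median over 12 β-cell markers differed by 1.16 on the log2 scale (8 of 12 higher at unadjusted p under 0.05), that over 8 α-cell markers by 1.71 (3 of 8) and that over 12 endothelial markers by −3.63 (11 of 12 lower). *Wnt4* itself was higher in Wnt4hi cells by 1.08 ± 0.27 (SE, unadjusted p = 0.0074, adjusted p = 0.21, limma, n = 3 arrays each), and its arrays did not overlap. 2 arrays stand apart. Wnt4low replicate 1 had the lowest mean over the β-cell markers (11.5, against 12.2 to 12.9 in the other Wnt4low arrays and 13.2 to 13.4 in Wnt4hi) and over the α-cell markers (8.81, against 10.98 to 12.56 in the other 5 arrays). Wnt4hi replicate 2 did not follow its own column in the authors' table of normalized values. For deviations from the mean of the 6 arrays over shared probes, r was 0.27, against 0.84 to 0.87 for the other 5 arrays. Without Wnt4low replicate 1 the difference of the list means fell from 1.14 to 0.79 for the β-cell and from 1.66 to 0.91 for the α-cell markers, and without Wnt4hi replicate 2 these were 1.13 and 2.00. For genes that passed the test, values without either array follow where they end the call or move the value by more than 1.5 times.

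**Figure D1:**
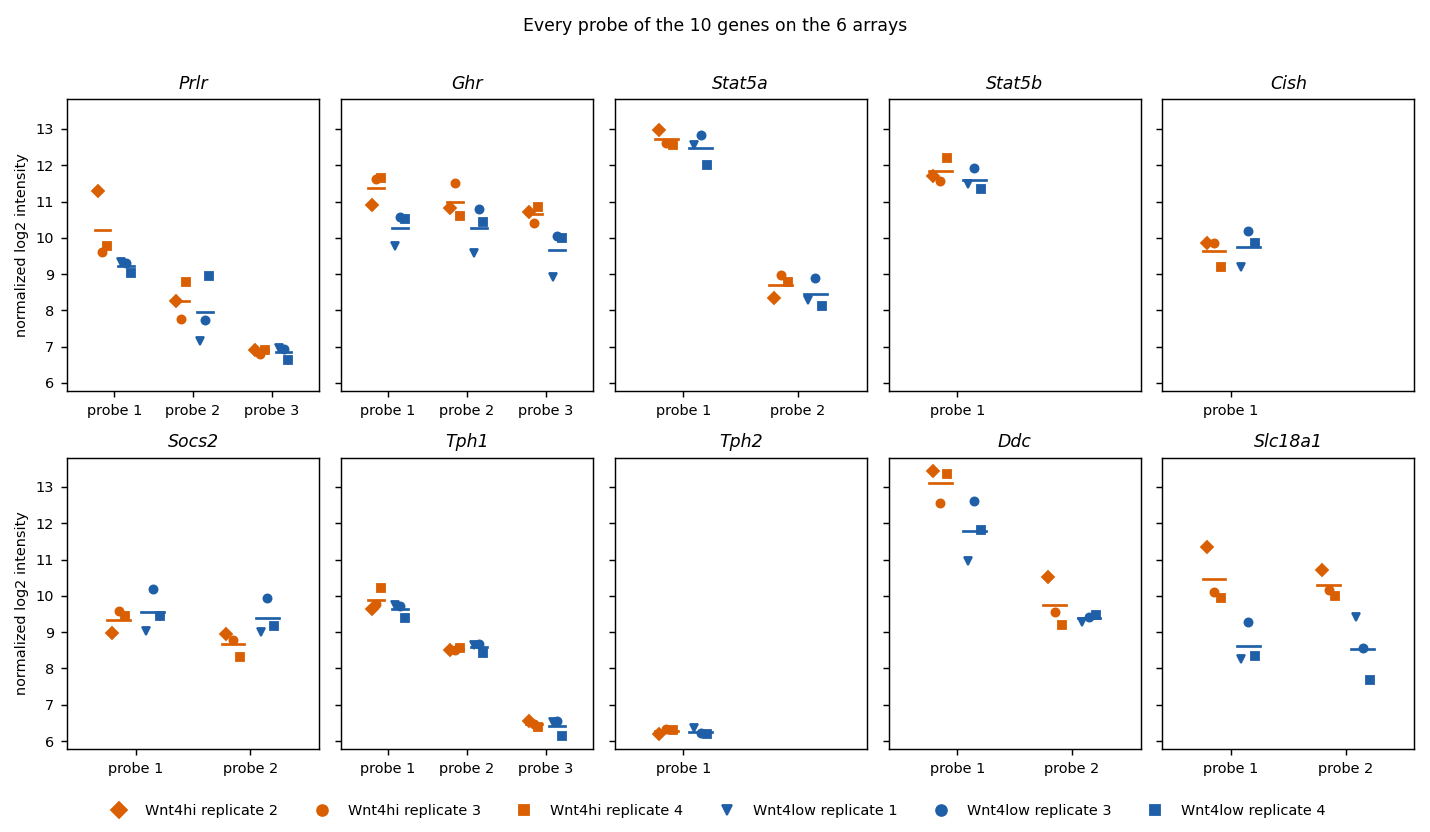
Normalized log2 intensity (vertical axis) of each of the 20 probes of the 10 genes, in the order of their mean within a gene. Each point is 1 array, orange for Wnt4hi and blue for Wnt4low, and short lines are means. The orange and blue points lie apart for the first probe of *Prlr*, the first and the third probe of *Ghr*, the second probe of *Socs2* and both probes of *Slc18a1*. *Tph2*, the third probe of *Tph1* and the third probe of *Prlr* were not well above background on any array.

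The unadjusted calls fell on genes for the growth hormone receptor and for the decarboxylation and vesicular storage of serotonin, and none passed adjustment. By limma at the study's unadjusted threshold of p under 0.05, 5 of the 20 probes were higher in Wnt4hi cells and 0 were lower. They belong to *Ghr* (2 of 3 probes), *Ddc* (1 of 2) and *Slc18a1* (2 of 2). Without Wnt4hi replicate 2 there were 3 higher and 0 lower, and without Wnt4low replicate 1 there were 4 higher and 1 lower. Over all probes, 4.84% were higher and 6.15% lower at this threshold. Counted by the probe with the highest mean for each gene, 3 of 10 genes were higher and 0 lower, where 5.46% of all genes were higher and 7.7% lower. After Benjamini-Hochberg adjustment over all probes 0.475% passed, and 0 of the 20 did so (lowest adjusted p = 0.20 by limma, and 0 also by the methods' t-test). In 5 probes every Wnt4hi array lay above every Wnt4low array, and in 1 every Wnt4hi array lay below, whereas over all probes these shares were 9.22% and 7.14%. The median difference of the 20 probes was 0.26 on the log2 scale, and that of all probes was 0.064. With 3 arrays against 3, an exact two-sided permutation test of 1 gene cannot go below p = 0.10, so the limma fit across all probes was used. Fewer cells of a type and less RNA per cell cannot be told apart in such pools.

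**Figure D2:**
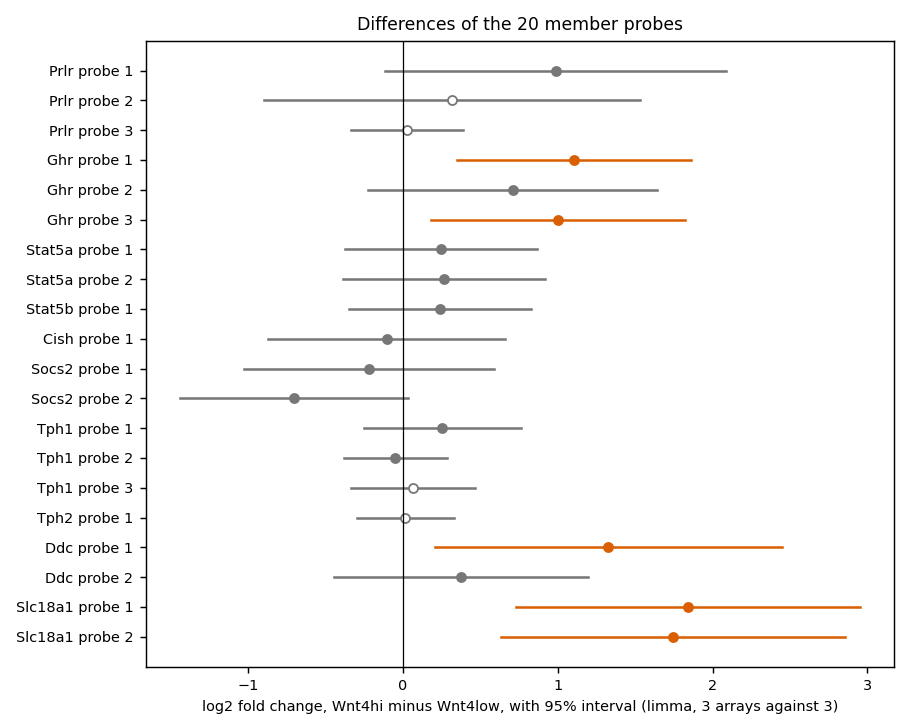
Difference between Wnt4hi and Wnt4low (horizontal axis, log2 fold change) for each of the 20 probes, with its 95% interval from limma over 3 arrays against 3. Orange marks unadjusted p under 0.05, and open points mark probes that were not well above background on all 6 arrays. 5 intervals, those of *Ghr*, *Ddc* and *Slc18a1* probes, lie wholly above 0.

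Genes of the prolactin and growth hormone family, not all of them ligands of PRLR or GHR, gave little signal that differed. Of 7 such genes with a probe, 4 were well above background on all 6 arrays and 2 on none. Their median difference was −0.006. *Prl*, pituitary prolactin, differed by 0.17 ± 0.15 (SE, unadjusted p = 0.29), and the placental lactogen *Prl3b1* by −0.25 ± 0.29 (unadjusted p = 0.41). *Prl2c3*, a placental proliferin, was lower at unadjusted p = 0.0019, but 0 of the Wnt4hi arrays and 1 of the Wnt4low arrays measured it above background, so that no fold is given.

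*Prlr*, which encodes the prolactin receptor, has 3 probes, and they did not give 1 answer. On A_52_P458279, the levels were 11.28, 9.61 and 9.76 in Wnt4hi replicates 2, 3 and 4 and 9.34, 9.31 and 9.03 in Wnt4low replicates 1, 3 and 4. The groups did not overlap, but replicate 2 stood far above the other Wnt4hi arrays, which lay close to the Wnt4low arrays. The difference of 0.99 ± 0.45 (SE, 95% interval −0.11 to 2.09) missed the threshold (unadjusted p = 0.071, adjusted p = 0.52). It was 0.46 without Wnt4hi replicate 2 (unadjusted p = 0.051) and passed only without Wnt4hi replicate 3 (1.29, unadjusted p = 0.038). On A_66_P139387 the levels were 8.25, 7.76 and 8.78 in Wnt4hi and 7.17, 7.74 and 8.94 in Wnt4low cells, with the highest and the lowest value both in Wnt4low arrays (difference 0.32 ± 0.50, unadjusted p = 0.55). The third probe, A_55_P2503206, stayed near background on all 6 arrays. By the likeness of its pattern over the 6 arrays (Pearson r to the first probe, 16154 genes ranked), *Rad51ap2*, *Ppil2* and *Bco2* came closest to *Prlr* (0.997, 0.996 and 0.996). In each of them Wnt4hi replicate 2 was the highest array, so that this ranking rests largely on 1 array.

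*Ghr*, which encodes the growth hormone receptor, was higher in Wnt4hi cells. On A_52_P680941 the levels were 10.89, 11.62 and 11.64 in Wnt4hi replicates 2, 3 and 4 and 9.76, 10.56 and 10.51 in Wnt4low replicates 1, 3 and 4. The lowest Wnt4hi array was above the highest Wnt4low array, and the spread inside each population was less than the distance between their means. The difference was 1.11 ± 0.31 (SE), or 2.15-fold (95% interval 0.35 to 1.86 on the log2 scale, unadjusted p = 0.012, adjusted p = 0.25). It stayed past the unadjusted threshold without each of the 6 arrays, from 0.85 without Wnt4low replicate 1 to 1.35 without Wnt4hi replicate 2. On A_51_P499854 the levels were 10.71, 10.40 and 10.86 in Wnt4hi and 8.92, 10.06 and 9.99 in Wnt4low cells, again without overlap. Here the difference was 1.00 ± 0.34 (unadjusted p = 0.024), and it missed the threshold without Wnt4hi replicate 2 (0.97, unadjusted p = 0.058) or replicate 4 (0.90, unadjusted p = 0.074). Without Wnt4low replicate 1 it was 0.63 (unadjusted p = 0.021). The remaining probe, A_55_P2500473, differed by 0.71 ± 0.38 with overlapping groups (unadjusted p = 0.11), so that its direction was that of the other probes but its test did not pass.

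Below the receptors, neither STAT5 gene passed the test. *Stat5a* differed by 0.25 ± 0.25 on A_66_P115018 (SE, unadjusted p = 0.37) and by 0.27 ± 0.27 on A_55_P1990495 (unadjusted p = 0.36). *Stat5b*, with A_55_P2031043 as its sole probe, differed by 0.24 ± 0.24 (unadjusted p = 0.36). Without 1 array the first *Stat5a* probe ranged from 0.011 (without Wnt4low replicate 4) to 0.43 (without Wnt4low replicate 3) and *Stat5b* from 0.052 to 0.41, and none of these passed. The 95% intervals of these 3 differences reached from −0.38 to 0.92, inside a 2-fold change in either direction.

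Neither feedback gene passed the test. *Cish*, an inhibitor of cytokine receptors with the motif pair printed above, differed by −0.10 ± 0.31 (SE, 95% interval −0.87 to 0.66, unadjusted p = 0.75), and by −0.38 without Wnt4low replicate 1 and −0.21 without Wnt4hi replicate 2. *Socs2*, which encodes the main brake on growth hormone signalling, had levels on A_51_P107362 that overlapped (difference −0.22 ± 0.33, unadjusted p = 0.54, and −0.48 without Wnt4low replicate 1 and −0.042 without Wnt4hi replicate 2). On its other probe, A_55_P1992838, the levels were 8.94, 8.78 and 8.32 in Wnt4hi and 9.01, 9.95 and 9.18 in Wnt4low cells. Every Wnt4hi array lay below every Wnt4low array, though the closest pair nearly touched. The difference of −0.70 ± 0.30 did not pass (unadjusted p = 0.058, adjusted p = 0.48), and without Wnt4low replicate 1 it was −0.89 and passed (unadjusted p = 0.038).

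Among 20 further genes of cytokine receptor signalling, 1 was higher and 4 were lower at unadjusted p under 0.05. Over all genes, 5.46% were higher and 7.7% lower. The median difference was −0.027 against 0.061 over all genes. The higher gene was *Ptpn6*, a phosphatase that restrains such receptors (0.87, unadjusted p = 0.035). Its groups overlapped, it was 0.40 in the authors' table, and the call was lost without Wnt4hi replicate 2 (0.75) or 4 (0.75) and without Wnt4low replicate 1 (0.60) or 4 (0.96). *Stat6*, the transducer of interleukin-4 and interleukin-13 signals, had levels of 9.51, 8.95 and 9.41 in Wnt4hi and 10.95, 10.94 and 10.72 in Wnt4low cells. The populations were clearly apart, at −1.58 ± 0.19 (SE, adjusted p = 0.044), and this was the sole one of the 86 related pathway genes that passed adjustment, a call that was lost when any 1 of the 6 arrays was left out, while its unadjusted call stayed. In the authors' table it was −1.09 (unadjusted p = 0.061). The leptin receptor *Lepr* fell by 1.78 on the log2 scale (SE 0.53, unadjusted p = 0.015). This call was lost without Wnt4hi replicate 3 (−1.50, unadjusted p = 0.051) and with the methods' t-test. As the mean of its probes the difference was −1.18. *Lepr* is also 1 of the 6 δ-cell markers, of which 3 were lower, and their part in its value was not tested. The feedback inhibitors *Socs5* and *Socs3* fell by 0.81 (SE 0.21, unadjusted p = 0.0087) and by 0.49 (SE 0.15, unadjusted p = 0.017). The *Socs3* call was lost without Wnt4hi replicate 3 (−0.42, unadjusted p = 0.061), and its difference was −1.10 in the authors' table. *Stat3*, which carries leptin and interleukin-6 signals, differed by 0.57 ± 0.35 (unadjusted p = 0.16), and *Socs7* by 0.50 ± 0.25 (unadjusted p = 0.092). Each passed without 1 array, *Stat3* at 0.87 without Wnt4low replicate 3 and *Socs7* at 0.67 without Wnt4low replicate 4.

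Genes known to respond to prolactin in islets did not move in 1 direction. Of 16 such genes, 4 were higher (*Slc2a2* and *Ivd* among them) and 4 lower (*Fbn1*, *Igf1*, *Foxm1* and *Birc5*, the last not without Wnt4low replicate 4, at −1.10). By comparison, 5.46% of all genes were higher and 7.7% lower. The median of the 16 was −0.058. *Slc2a2*, the glucose transporter of β-cells, differed by 1.67 ± 0.50 (SE, unadjusted p = 0.015), and *Ivd*, an enzyme of leucine breakdown, by 0.58 ± 0.18 (unadjusted p = 0.019, and 0.54 without Wnt4hi replicate 3, where the call was lost). In the other direction, the cell cycle regulator *Foxm1* was lower, at −1.36 ± 0.37 (unadjusted p = 0.0096). *Igf1*, a secreted growth factor, was lower, at −2.38 ± 0.58 (unadjusted p = 0.0061), and so was *Fbn1*, a matrix fibrillin, at −1.44 ± 0.33 (unadjusted p = 0.0044). *Ccnd2*, the cyclin that drives β-cell proliferation, differed by 0.13 ± 0.23 (unadjusted p = 0.60) and *Ovol2* by 0.08 ± 0.14 (unadjusted p = 0.60). Mesenchymal and pericyte markers, which moved with *Igf1* and *Fbn1*, were all negative (11 of 11, 7 lower at unadjusted p under 0.05), with mean levels of 10.6 to 11.8 in Wnt4hi and 12.3 to 12.5 in Wnt4low arrays. Their part in these values was not tested. *Slc2a2* stands among the β-cell markers as well.

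Serotonin synthesis opens with tryptophan hydroxylase, and neither gene for it differed detectably. *Tph1*, the form used outside the brain, had levels on A_51_P458130 between 9.65 and 10.23 in Wnt4hi and between 9.39 and 9.76 in Wnt4low cells. These ranges overlap (difference 0.26 ± 0.21 SE, unadjusted p = 0.27), and the interval of −0.25 to 0.76 does not reach a 2-fold change. A_55_P2934423 gave −0.05 ± 0.14 (unadjusted p = 0.73). The third *Tph1* probe and A_52_P673043, the probe of the neuronal form *Tph2*, were not well above background on any array. Mast cells also express *Tph1*, and their 8 markers were all negative with a median of −0.46, 1 of them past the threshold (*Cpa3*, −1.74, adjusted p = 0.037, at least 1.61-fold lower). Their part in the values of *Tph1* was not tested.

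*Ddc* encodes the decarboxylase that completes the synthesis of serotonin as well as of dopamine. On A_55_P2500104 the levels were 13.45, 12.57 and 13.35 in Wnt4hi replicates 2, 3 and 4 and 10.96, 12.61 and 11.82 in Wnt4low replicates 1, 3 and 4. Wnt4hi replicate 3 and Wnt4low replicate 3 were nearly equal, and the groups overlapped there. The difference was 1.33 ± 0.46 (SE), or 2.51-fold (95% interval 0.21 to 2.45 on the log2 scale, unadjusted p = 0.027, adjusted p = 0.36). Of the 6 arrays, 4 were needed for the call, which was lost without Wnt4hi replicate 2 (1.17, unadjusted p = 0.075), Wnt4hi replicate 4 (1.21, unadjusted p = 0.079), Wnt4low replicate 1 (0.91, unadjusted p = 0.061) or Wnt4low replicate 4 (1.34, unadjusted p = 0.064). A_52_P63905 differed by 0.37 ± 0.34 (unadjusted p = 0.31), with Wnt4hi replicate 2 the highest array at 10.51.

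The largest difference of the 10 genes was in *Slc18a1*, which encodes the vesicular monoamine transporter of endocrine cells (VMAT1). On A_51_P203620 the levels were 11.34, 10.11 and 9.95 in Wnt4hi and 8.25, 9.27 and 8.35 in Wnt4low cells. Every Wnt4hi array was above every Wnt4low array, with Wnt4hi replicate 2 the highest and Wnt4low replicate 1 the lowest. The difference was 1.84 ± 0.46 (SE), or 3.59-fold (95% interval 0.73 to 2.95 on the log2 scale, unadjusted p = 0.0065, adjusted p = 0.20). A_55_P2107432 gave 10.71, 10.17 and 9.99 in Wnt4hi and 9.41, 8.56 and 7.67 in Wnt4low cells, again without overlap. Here the difference was 1.75 ± 0.46 (unadjusted p = 0.0083, adjusted p = 0.22). Both probes stayed past the unadjusted threshold without each of the 6 arrays, at 1.41 and 1.54 without Wnt4hi replicate 2 and at 1.66 and 2.18 without Wnt4low replicate 1. Among the 36 pairs of the 9 genes measured on all arrays, *Prlr* and *Slc18a1* had the most similar patterns (Pearson r = 0.89 over 6 arrays from 2 populations), and both were highest in Wnt4hi replicate 2. For deviations from the population means the highest pair was *Ghr* and *Socs2* (0.83), followed by *Prlr* and *Slc18a1* (0.82).

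**Figure D3:**
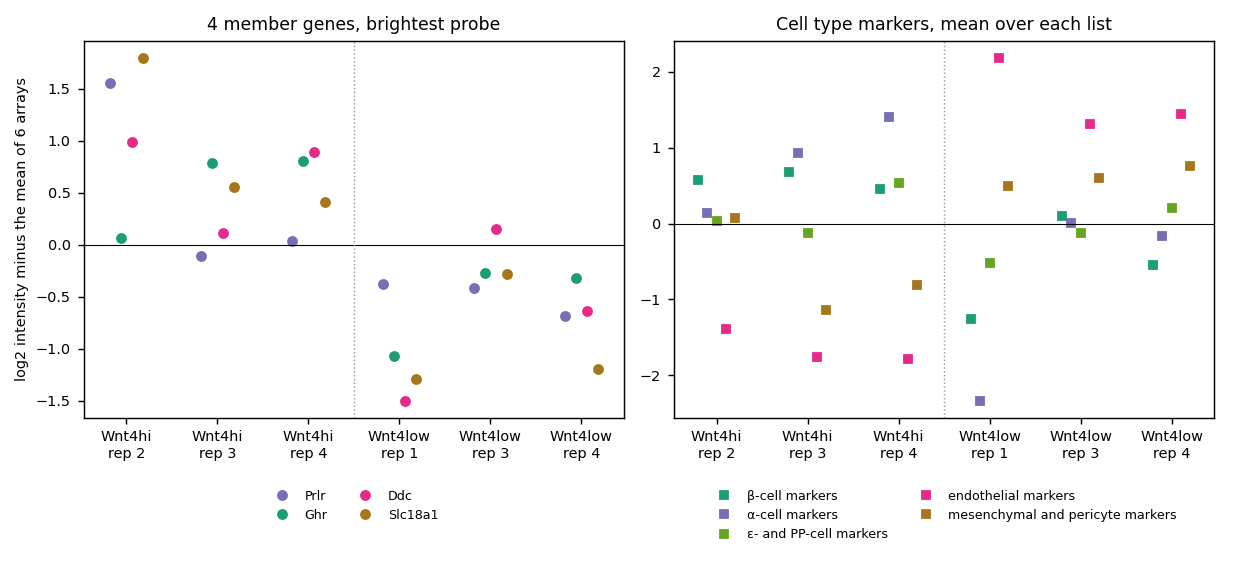
Log2 intensity minus the mean of the 6 arrays (vertical axis) on each array, for the probe with the highest mean of *Prlr*, *Ghr*, *Ddc* and *Slc18a1* (left) and for the mean over each of 5 lists of cell type markers (right). Wnt4hi arrays are left of the dotted line. *Ghr* and *Slc18a1* lie above 0 on all Wnt4hi and below 0 on all Wnt4low arrays, the endothelial markers lie the other way round, and Wnt4low replicate 1 is lowest for *Ghr*, *Ddc*, *Slc18a1* and the β- and α-cell markers.

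Endocrine marker lists differed between the arrays too, and not all in the direction of the members that passed. On Wnt4low replicate 1, *Ghr*, *Ddc* and *Slc18a1* (first probes) had their lowest levels, as had the β-cell and α-cell markers, whereas the second *Slc18a1* probe had its highest Wnt4low level there. Over all 12 β-cell markers, the log2 of the summed intensity ranged from 18.34 to 18.37 in Wnt4hi and from 17.55 to 18.17 in Wnt4low arrays, and all 12 were above background on every array. Over the 8 α-cell markers it ranged from 15.93 to 16.75 in Wnt4hi and from 13.43 to 15.88 in Wnt4low arrays. Of 5 ε- and PP-cell markers, 2 were higher and 1 lower at unadjusted p under 0.05, with a median of 0.44. *Ghrl*, the ε-cell hormone ghrelin, differed by 2.10 (adjusted p = 0.049), *Ppy*, pancreatic polypeptide, by 1.22 (adjusted p = 0.084), *Pyy*, peptide YY, by 0.44 (unadjusted p = 0.057) and *Spp1*, also a duct gene, by −2.16 (unadjusted p = 0.0052). Of 6 δ-cell markers, 1 was higher and 3 lower, with a median of −0.64, and *Sst*, somatostatin, differed by −0.56 (unadjusted p = 0.025). The adjusted calls of *Ghrl* here and of *Cpa3* above were lost when Wnt4hi replicate 3 or 4 or any Wnt4low array was left out, since 0 of all probes then passed adjustment. The part of the cell mixture in the values of *Ghr*, *Ddc* and *Slc18a1* was not tested.

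Few of the other genes for transport and breakdown of serotonin were called. Of 11 genes, 4 were positive and 7 negative, and the median was −0.11. At unadjusted p under 0.05, 1 was higher and 1 lower, where 5.46% of all genes were higher and 7.7% lower. *Slc18a2*, the second vesicular monoamine transporter (VMAT2), differed by −0.55 with an interval across 0, and *Slc6a4*, the plasma membrane serotonin transporter, by −0.11 with 3 of 6 arrays above background. *Maob*, a monoamine oxidase, had levels of 11.46, 11.05 and 11.51 in Wnt4hi and 8.90, 10.89 and 10.31 in Wnt4low cells. It was higher by 1.30 ± 0.51 (SE, unadjusted p = 0.041), but not without Wnt4hi replicate 2 (1.24, unadjusted p = 0.090), 3 (1.45, unadjusted p = 0.059) or 4 (1.22, unadjusted p = 0.10) or Wnt4low replicate 4 (1.44, unadjusted p = 0.064). Without Wnt4low replicate 1 it was 0.73 (unadjusted p = 0.036). *Sult1a1*, a sulfotransferase, was lower, at −0.82 ± 0.18 (unadjusted p = 0.0032). *Aldh2*, which removes the aldehyde left by monoamine oxidase, differed by −0.40 ± 0.26 (unadjusted p = 0.17) and *Aanat*, which leads from serotonin towards melatonin, by 0.22 ± 0.17 (unadjusted p = 0.25).

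Tryptophan hydroxylase needs tetrahydrobiopterin. Of 8 genes for making and recycling this cofactor, 3 were higher and 1 was lower. Among all genes, 5.46% were higher and 7.7% lower. The median of the 8 was 0.76 against 0.061 over all genes. *Gch1*, the first and limiting step, had levels of 10.31, 10.76 and 10.93 in Wnt4hi and 9.87, 10.03 and 9.28 in Wnt4low cells (difference 0.94 ± 0.27 SE, unadjusted p = 0.012). *Pcbd1* and *Qdpr*, the enzymes that regenerate the cofactor, rose by 1.58 ± 0.40 (unadjusted p = 0.0070) and 0.78 ± 0.18 (unadjusted p = 0.0040). The arrays of these 3 genes did not overlap, and each kept its unadjusted call without each of the 6 arrays. The β-cell and α-cell markers were higher too (medians 1.16 and 1.71), and their part in these values was not tested. *Spr*, the last step of synthesis, differed by −0.37 ± 0.51 (unadjusted p = 0.49) and *Pcbd2* by −0.49 ± 0.39 (unadjusted p = 0.25, and −0.18 without Wnt4hi replicate 2). None of the 8 passed adjustment by limma (lowest adjusted p = 0.16).

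Of 10 transcription factors of serotonergic neurons, 2 were higher and 1 lower, where 5.46% of all genes were higher and 7.7% lower. Their median difference was 0.23 and their mean difference −0.012. *Fev*, which switches on the serotonin genes of the brain and also marks endocrine progenitors, had levels of 12.04, 11.96 and 11.99 in Wnt4hi and 10.90, 10.93 and 11.53 in Wnt4low cells. The Wnt4hi arrays were nearly equal and all above the Wnt4low arrays, and the difference was 0.88 ± 0.20 (SE, unadjusted p = 0.0047, adjusted p = 0.17). *Nkx2-2*, shared by serotonergic neurons and islet cells, was higher by 1.62 ± 0.45 (unadjusted p = 0.011), and by 1.09 without Wnt4low replicate 1. The part of the β-cell and α-cell markers (medians 1.16 and 1.71) in the values of *Fev* and *Nkx2-2* was not tested. *Insm1*, a factor of endocrine differentiation, differed by 1.02 ± 0.42 (unadjusted p = 0.052), by 0.61 without Wnt4low replicate 1 and by 1.30 without Wnt4low replicate 3 (unadjusted p = 0.032), and it passed in 9 of 20 alternatives. *En2* differed by 0.26 ± 0.39 (unadjusted p = 0.54). *Gata2*, which is also a gene of endothelial and blood cells, was well above background on all Wnt4low arrays (11.77, 9.22 and 11.03) and on none of the Wnt4hi arrays, and was at least 9.56-fold lower there (unadjusted p = 0.0010, adjusted p = 0.086). Endothelial markers, which moved with it, had mean levels of 8.39 to 8.78 in Wnt4hi and 11.5 to 12.4 in Wnt4low arrays. All 12 were negative, 2 (*Tie1* and *Tek*) were above background on none of the Wnt4hi arrays, and their part in the value of *Gata2* was not tested.

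**Figure D4:**
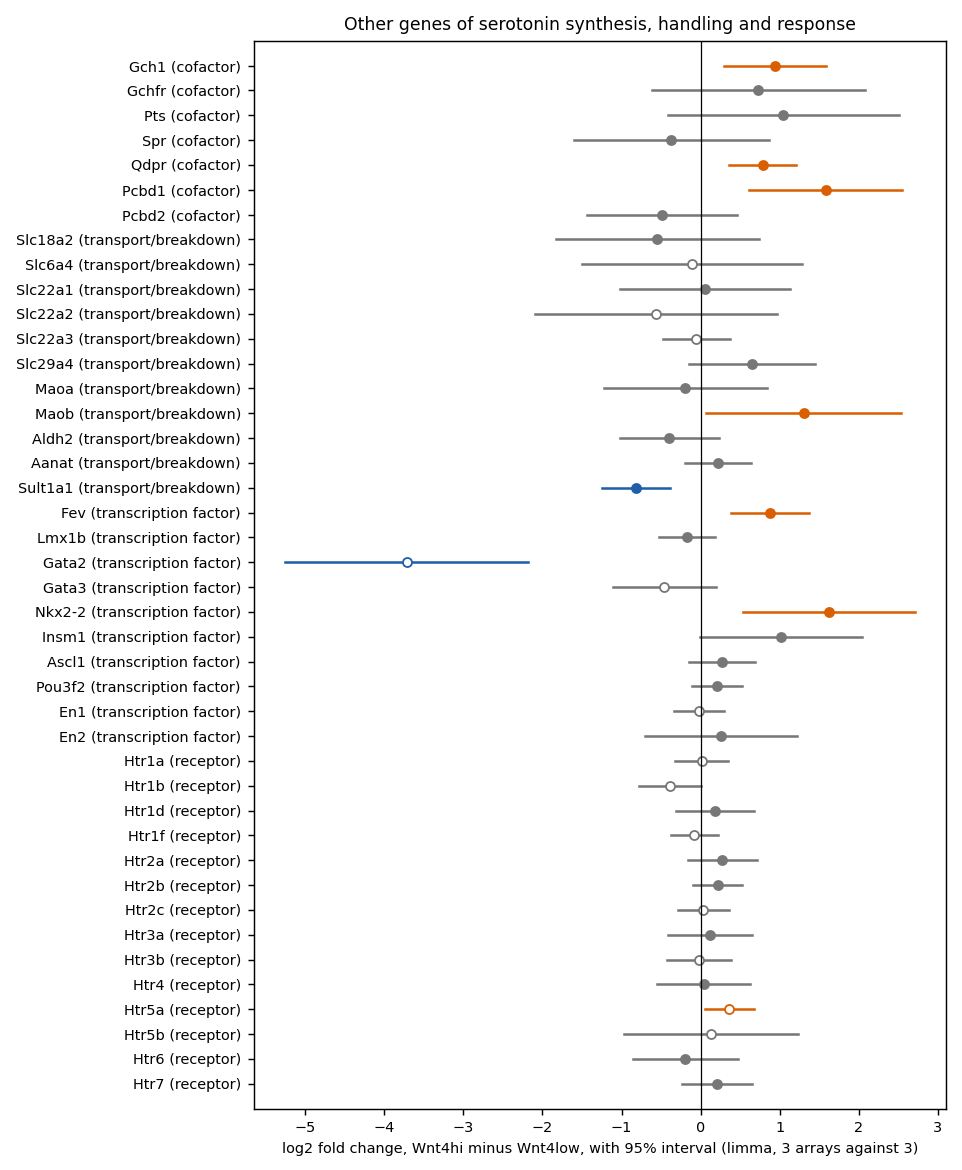
Difference between Wnt4hi and Wnt4low (horizontal axis, log2 fold change) with its 95% interval from limma for 42 further genes of the serotonin pathway, 1 probe each. Orange and blue mark genes higher and lower at unadjusted p under 0.05, and open points were not well above background on all 6 arrays. *Gata2* lies farthest from 0, and the 3 cofactor genes *Gch1*, *Qdpr* and *Pcbd1* lie above 0.

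The receptors through which serotonin acts were near 0. Of 14 genes, 7 were well above background on all 6 arrays and 5 on none, and the median difference was 0.08. *Htr5a* passed upwards at unadjusted p = 0.026, but 1 of the Wnt4hi and 0 of the Wnt4low arrays measured it above background, so that no size is given, and the call was lost without Wnt4hi replicate 3 or 4 or Wnt4low replicate 1 or 4. *Htr1d*, a receptor that holds back secretion, differed by 0.18 ± 0.20 (unadjusted p = 0.40) and *Htr4* by 0.04 ± 0.24 (unadjusted p = 0.88). *Htr2b*, the receptor that carries the serotonin signal to β-cell proliferation in pregnancy, differed by 0.22 and *Htr3a*, an ion channel of β-cells, by 0.12, both with intervals across 0.

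Over all 86 related pathway genes, 12 were higher and 12 lower at unadjusted p under 0.05 (14.0% each, where 5.46% of all genes were higher and 7.7% lower), and the median difference was 0.04. The 10 genes of the axis were read again under up to 20 other settings. *Ghr* and *Slc18a1* kept their unadjusted call in 19 of 19, from 0.85 to 1.35 and from 1.22 to 2.17 on the log2 scale, *Ddc* in 14 of 20 and *Prlr* in 1 of 20. *Stat5a*, *Stat5b*, *Cish*, *Socs2*, *Tph1* and *Tph2* passed in none with the probe of the highest mean.

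**Figure D5:**
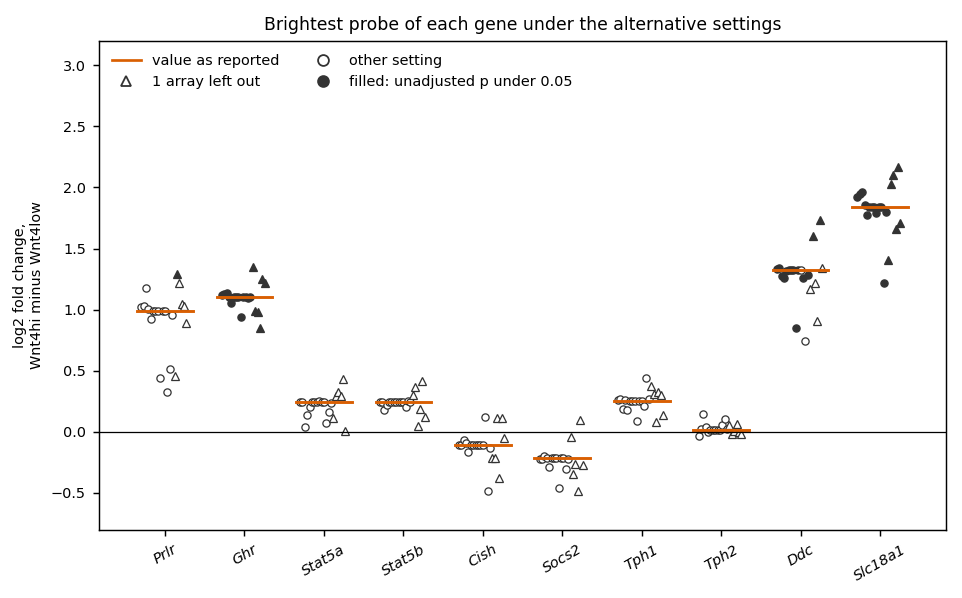
Difference between Wnt4hi and Wnt4low (vertical axis, log2 fold change) for the probe of each gene with the highest mean (orange line) and under each other setting (triangles for settings without 1 array, circles for the rest). Filled symbols have an unadjusted p under 0.05. All symbols of *Ghr* and *Slc18a1* are filled, those of *Ddc* in part, and 1 of *Prlr*.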

How the data were processed

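RNA of sorted islet cells was amplified, labelled with Cy5 and hybridised to 1-color SurePrint G3 Mouse v2 arrays. For each array the authors deposited unnormalized scanner output with spot and local background intensity, and an intensity processed by the scanner software. A table of log2 values normalized by the authors held 7 of the 10 genes (not *Ghr*, *Socs2* and *Slc18a1*) and served as an alternative. In deviations from the mean of the arrays, its Wnt4hi replicate 2 column did not follow that array's scanner values. The median of the table was 8.91 in every column, and its normalization is not stated in the file. Columns of comparisons were not used.

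After the methods of the study, median intensities were background corrected with normexp (offset 50), quantile normalized, log2 transformed and averaged per probe, and outlier spots (50 to 141 per array) were left out. The median signal was 10.8 to 15.6 times the background and 0 spots were saturated. The number of arrays limits the precision. Probes were named through RefSeq accessions (GRCm38.p6, names only), of which 25126 of 27845 matched. Populations were compared with lmFit and eBayes (limma 3.58.1, R 4.3.3) without covariates, with Benjamini-Hochberg adjustment over 56605 probes. For a gene of the related lists, its probe of highest mean level was taken. A bound ("at least") sets the mean of the measured population against a dim population whose arrays enter at the higher of their own value and the lowest value above background, and otherwise the log2 difference of such probes is not a measured size. Pools of pups are the replicates within each population. Replicate numbers 3 and 4 occur in both populations. The sources used here do not say whether samples of the same number came from the same pups. Their deviations from the population means had r = −0.025 and 0.15, where pairs of unlike number had −0.22 to 0.17. With 3 arrays per population, such values cannot settle whether the samples were paired.

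Members and lists were chosen with earlier results of these data known. All probes of the 10 genes are named. From each related list those past the unadjusted threshold (at most the 4 with the smallest p) and the 2 brightest others are named, and from marker lists at most the 3 brightest. *Ptpn6*, *Slc2a2*, *Ivd*, *Birc5*, *Slc18a2*, *Slc6a4*, *Htr2b*, *Htr3a*, *Cpa3*, *Spp1*, *Tie1* and *Tek* were added after their values were seen. *Prl2c2* and *Asmt* had no probe under these names. The alternatives changed background correction, normalization, the filter on dim probes, outlier spots, the probe of a gene, the variance model (a robust trend, or the methods' t-test, which the study states for its general statistics while its array analysis is by limma), the source of the values (the authors' table), a block by replicate number (fixed or random), and the arrays (each left out once). The scripts were tested on simulated data. A few genes of the related lists are counted but not reported by name here.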

Additional observations from a re-analysis of the deposited data

How the results depend on the processing

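Of 51 genes and probes followed over up to 20 alternatives, 42 kept their direction in every alternative that gave a value. Of 20 member probes, 5 were higher and 0 lower at unadjusted p under 0.05. With a fixed replicate block 3 were higher and 1 lower, with the methods' t-test 3 were higher and 0 lower (the *Ghr* probe A_51_P499854 and *Ddc* were lost), and without 1 array 3 to 6 were higher and 0 to 1 lower. The lower probe was the second of *Socs2* (A_55_P1992838), which also passed with cyclic loess (1 lower, −0.76) and with a random replicate block (1 lower, −0.73, consensus correlation 0.11). Under the fixed block *Ddc* lost its call (0.75, unadjusted p = 0.15), as did that *Ghr* probe (0.61, unadjusted p = 0.078), *Maob* (0.67, unadjusted p = 0.11), *Ptpn6* (0.48, unadjusted p = 0.21) and *Socs3* (−0.63, unadjusted p = 0.051), *Slc18a1* was 1.22, and *Ghr* kept its call. The calls of *Ivd* and *Htr5a* were lost under it as well, and that of *Htr5a* also in the authors' table. *Maob* and *Ptpn6* lost theirs with cyclic loess and with the methods' t-test too. By the probe with the highest mean, 3 member genes were higher. In the authors' table, which held 7 of the 10, this was 1 gene, and without 1 array it was 2 to 4. The value of *Prlr* was 0.32 in the authors' table. Adjusted calls were far less stable. Over all probes 269 passed, 669 with a filter on dim probes and 406 in the authors' table. The count was 0 with the fixed replicate block and 0 with the methods' t-test, which passed 6167 and 5169 at unadjusted p under 0.05. Without 1 array 0 to 3 passed. Of the related genes 1 passed adjustment. The filter on dim probes and the authors' table gave 2, and the fixed replicate block, the methods' t-test and trend with robust estimation gave 0, as did all fits without 1 array. The remaining 9, none of which had passed, changed sign, and the cause was not tested. *Tph2* was −0.031 without background subtraction and −0.016 to 0.062 without 1 array. *Ccnd2* was −0.051 with the processed intensity, −0.013 in the authors' table, −0.017 under the fixed block and −0.10 to 0.28 without 1 array. *Cish* was 0.12 in the authors' table and −0.38 to 0.11 without 1 array. *Spr* was 0.085 in the authors' table, 0.44 under the fixed block and −0.75 to 0.13 without 1 array. *Htr4* was −0.022 with cyclic loess and −0.19 to 0.19 without 1 array. *Prl3b1* was 0.048 under the fixed block and −0.48 to 0.039 without 1 array, *Ovol2* −0.0043 and −0.0069 to 0.13, though it passed as the mean of its probes (0.54, unadjusted p = 0.013). Without 1 array *Socs2* was −0.48 to 0.10 and *En2* −0.020 to 0.62. The filter on dim probes removed *Tph2* and gave no value for it. Where a population was left with 2 arrays, the spread was pooled over the fit.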
